A study of Mus musculus with 24 samples.

Results

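The early transcriptional response to lipopolysaccharide (LPS) was described in mouse bone marrow-derived macrophages (BMDMs) that served as the genotype control of the study. The 3 libraries made after 1 h of LPS were compared with the 3 libraries made without LPS (0 h), so 6 of the 24 libraries entered the main comparison. Of the 24273 genes in the deposited table, 13901 passed a filter on low values and were tested. All 6 libraries were labelled LysM-Cre, strain C57BL/6, and came from bone marrow cells grown for 7 days in L-cell conditioned medium and rested overnight in medium with little serum. LPS was given at 100 ng/ml, and the 0 h cells were left untreated. LysM-Cre is a Cre recombinase gene at the lysozyme locus Lyz2, which is active in myeloid cells, and treated and untreated libraries carried it alike. The series text calls the controls LysM-Cre, whereas the study also describes them with 1 floxed Fos allele, and the values cannot show which applied. The other libraries were LysM-Cre at 0.5 and 2 h of LPS, and FosKO, in which Cre was to delete a floxed Fos gene, at 0, 0.5, 1 and 2 h, with 3 libraries in each of the 8 groups. The study's methods call the libraries biological replicates, without saying whether these were separate mice, and age is not given in the sources used here.

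LPS, a glycolipid of the outer membrane of Gram-negative bacteria, is sensed by Toll-like receptor 4 together with the coreceptor CD14. Signalling through the adaptor MyD88 activates IκB kinase and the MAP kinases, which release the transcription factor NF-κB and raise AP-1 and ternary complex factor activity, whereas the adaptor TRIF leads to IRF3 and interferon-β. Macrophages answer in waves, with immediate early genes first, then cytokines, chemokines and inhibitors of the same pathways, and later the genes that depend on proteins made in between. Many of the early mRNAs carry AU-rich words in the 3′ UTR, which are known to shorten mRNA life.

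To show the regulatory sequence of genes that rose, promoters of 6 of them are given from RefSeq on GRCm38.p6, as 250 bases before to 50 bases after the annotated start, 5′ to 3′ on the gene's strand. They were chosen after the values were seen, for known roles in the response, and do not stand for the other genes. Nfkbia encodes IκBα (chr12:55492598-55492897, minus strand), Tnfaip3 the ubiquitin-editing enzyme A20 (chr10:19015361-19015660, minus strand), and Cxcl1 (chr5:90890995-90891294, plus strand) and Cxcl2 (chr5:90903649-90903948, plus strand) neutrophil chemokines. Tnf encodes tumour necrosis factor (chr17:35201958-35202257, minus strand) and Dusp1 a MAP kinase phosphatase (chr17:26508423-26508722, minus strand). Capitals mark words found by search, which were the NF-κB word (GGG, any 2 bases, then TTTCC or TTCCC) on either strand, the AP-1 word TGACTCA on either strand, the cAMP response element TGACGTCA, and TATAAA on the sense strand within the 50 bases before the start.
Nfkbia promoter: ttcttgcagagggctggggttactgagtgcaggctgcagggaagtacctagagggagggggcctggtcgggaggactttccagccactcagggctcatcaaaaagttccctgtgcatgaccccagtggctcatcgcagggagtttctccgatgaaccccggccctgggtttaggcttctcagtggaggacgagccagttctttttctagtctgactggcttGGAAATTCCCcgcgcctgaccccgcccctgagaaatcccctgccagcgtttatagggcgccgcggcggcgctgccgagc
Tnfaip3 promoter: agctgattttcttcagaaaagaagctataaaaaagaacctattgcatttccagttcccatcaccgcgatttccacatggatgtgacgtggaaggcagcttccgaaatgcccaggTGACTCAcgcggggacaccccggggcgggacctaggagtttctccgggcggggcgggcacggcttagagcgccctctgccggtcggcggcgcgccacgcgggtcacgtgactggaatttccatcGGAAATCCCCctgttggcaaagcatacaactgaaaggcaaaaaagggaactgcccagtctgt
Cxcl1 promoter: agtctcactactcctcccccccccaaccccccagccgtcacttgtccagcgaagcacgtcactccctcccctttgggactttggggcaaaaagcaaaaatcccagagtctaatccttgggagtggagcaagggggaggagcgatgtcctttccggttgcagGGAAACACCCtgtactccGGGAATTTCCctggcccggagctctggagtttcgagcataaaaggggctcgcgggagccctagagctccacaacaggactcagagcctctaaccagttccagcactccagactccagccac
Cxcl2 promoter: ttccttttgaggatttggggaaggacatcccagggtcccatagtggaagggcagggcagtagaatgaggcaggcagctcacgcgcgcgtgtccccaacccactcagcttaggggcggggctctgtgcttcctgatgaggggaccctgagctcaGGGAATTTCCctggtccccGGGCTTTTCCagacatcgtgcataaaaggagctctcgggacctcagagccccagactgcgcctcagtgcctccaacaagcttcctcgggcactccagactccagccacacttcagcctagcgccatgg
Tnf promoter: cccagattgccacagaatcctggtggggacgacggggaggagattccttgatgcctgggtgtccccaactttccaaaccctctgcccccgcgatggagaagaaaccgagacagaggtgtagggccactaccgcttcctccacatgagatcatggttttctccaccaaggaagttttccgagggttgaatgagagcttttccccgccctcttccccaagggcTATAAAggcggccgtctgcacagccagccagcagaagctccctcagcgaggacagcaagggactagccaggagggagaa
Dusp1 promoter: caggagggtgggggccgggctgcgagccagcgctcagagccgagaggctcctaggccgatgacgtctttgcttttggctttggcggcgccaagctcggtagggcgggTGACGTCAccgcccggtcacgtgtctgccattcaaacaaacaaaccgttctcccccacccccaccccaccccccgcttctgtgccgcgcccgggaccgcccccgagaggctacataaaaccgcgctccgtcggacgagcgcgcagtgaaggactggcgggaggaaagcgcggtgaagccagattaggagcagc

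An NF-κB word lay 29 bases before the start of Nfkbia and 12 bases before that of Tnfaip3, where an AP-1 word lay at 136 bases. Cxcl1 held NF-κB words 89 and 71 bases before its start, and Cxcl2 97 and 78 bases before its start. The Tnf window held TATAAA at 29 bases and none of the other words, and the Dusp1 window a cAMP response element at 143 bases. Among all 32851 windows of this length, from 27025 genes, 3.24% held an NF-κB word, 5.2% an AP-1 word, 1.79% a cAMP response element and 2.63% a TATAAA in that place. A word in a window is a description, and absence of a word says only that these letters are not there. No share was computed over the genes that rose, because only 228 of the 325 genes described below (70.2%) had a window in the table, and of the 180 genes that fell 96 (53.3%) had one. Among all tested genes 9534 of 13901 (68.6%) had one.

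The AU-rich word TATTTAT was read in the 3′ UTR of the GENCODE transcripts on GRCm38. The following stretches of 30 bases, with each word in capitals, come from mRNAs that rose. The genes were picked by hand, and each stretch is the one with the most words in its 3′ UTR. They therefore show the densest places and do not stand for the other genes. They lie at chr17:35199677-35199706 on the minus strand for Tnf, at chr11:54247321-54247350 on the minus strand for Csf2 (granulocyte-macrophage colony-stimulating factor), at chr5:90892610-90892639 for Cxcl1 and at chr5:90905327-90905356 for Cxcl2. For Ier3, an immediate early survival gene, the stretch is chr17:35822492-35822521, and for Zfp36, which encodes the AU-rich RNA-binding protein tristetraprolin, it is chr7:28376954-28376983 on the minus strand.
Tnf 3′ UTR stretch: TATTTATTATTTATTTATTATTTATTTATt
Csf2 3′ UTR stretch: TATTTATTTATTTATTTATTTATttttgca
Cxcl1 3′ UTR stretch: TATTTATTTATgTATTTATTTATtccacaa
Cxcl2 3′ UTR stretch: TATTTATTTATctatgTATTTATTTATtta
Ier3 3′ UTR stretch: TATTTATgTATTTATgtatatcctcctagg
Zfp36 3′ UTR stretch: TATTTATgacgacttTATTTATtgtattaa

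The Tnf stretch held 5 words, some of which overlapped, of 8 in a 3′ UTR of 764 bases, and that of Csf2 held 5, of 9 in 317 bases. Those of Cxcl1 and Cxcl2 held 4 each, of 6 and 7 in the whole 3′ UTR, and those of Ier3 and Zfp36 held 2 each, of 4 and 3. Among the genes that rose 2-fold and had an annotated 3′ UTR, 143 of 280 (51.1%) held the word, compared with 29 of 119 (24.4%) among the genes that fell 2-fold and 3209 of 11483 (27.9%) among all tested genes. Per kb of 3′ UTR the word occurred 0.725 times in the genes that rose, 0.208 times in those that fell and 0.291 times in all, while the median 3′ UTR was 1060, 1210 and 991 bases long. At least 2 words were found in 23.2% of the first set, 6.72% of the second and 9.46% of all. These shares are descriptions with no test.

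The content of 18S ribosomal RNA set some libraries apart before any comparison. Rn18s-rs5, an 18S ribosomal RNA entry, was at 19.12, 19.04 and 18.94 in the 0 h libraries and at 18.57, 16.88 and 17.00 in the 1 h libraries (log2 normalised values). LysM-Cre 1 h replicates 2 and 3 were thus low, as were 3 other libraries of the series, and the remaining 19 lay between 18.57 and 19.39. Rpl27, a ribosomal protein gene, moved with it, at 10.87, 10.80 and 10.82 without LPS and 10.49, 8.48 and 8.37 at 1 h (adjusted p = 0.074 by limma). List counts are therefore also given for the libraries high in 18S, which leaves 1 library at 1 h whose spread is assumed to be that of the other groups. Counts for the genes changed 2-fold are given with 18S content as a term too. The shares over all tested genes printed beside the list counts are those of the fit of all libraries. They do not carry over to the alternatives. Fewer genes were called in the high 18S libraries, and 37.6% of calls were higher after quantile normalisation, compared with 53.8% as deposited. The cause of the 18S difference was not tested. Apart from it the replicates were close, with correlations across genes within the 2 groups between 0.9965 and 0.9985 and a median SD of a gene of 0.0573 at 0 h and 0.0604 at 1 h.

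The cells carried macrophage markers. All 11 macrophage markers of the list were tested, and their summed linear level was between 155000 and 159000 at 0 h and between 176000 and 182000 at 1 h. Their median log2 difference was 0.04, and the largest, 1.02, was that of the LPS coreceptor gene Cd14. Of the neutrophil markers, 5 of 9 in the table were under 5 on the linear scale in all 6 libraries, Ly6g and Mpo did not pass the filter, and the sum was 83.1 to 113 at 0 h and 117 to 155 at 1 h. For T and NK cells 8 of 10 markers were under 5, including Cd3e, with sums of 217 to 236 and 213 to 255, and for B cells 7 of 10, with sums of 2880 to 3070 and 2850 to 3030. Dendritic cell markers summed to 1820 to 1870 and to 2020 to 2050, with 3 of 10 under 5, and erythroid and megakaryocyte markers, mainly Pf4, to 2070 to 2240 and to 2350 to 2570, with 6 of 8 under 5. Mast cell markers summed to 20.8 to 29.1 and 22.3 to 24.3, with 2 of 3 under 5, and stromal markers to 418 to 470 and 370 to 439, with 4 of 11 under 5. S100a9 (0.66), Ltf (0.56), Ngp (0.48), Xcr1 (0.77), Tcf4 (0.14) and Pf4 (0.16) were called higher at 1 h on the log2 scale, of which S100a9 and Xcr1 were called in the high 18S libraries. There 1 of 4 tested neutrophil markers, 2 of 7 dendritic cell markers and 1 of 2 T and NK cell markers were called higher, compared with 3, 2 and none in all libraries. The macrophage marker list itself held 4 calls higher and 1 lower, with 1 and 6 after quantile normalisation and 2 and 1 in the high 18S libraries. In the fit of all libraries 19.2% of all tested genes were called higher and 16.5% lower. The part of other cells in the results was not tested, and in bulk RNA a change in the share of a cell type and a change in RNA per cell cannot be told apart.

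After 1 h of LPS, the chemokine gene Cxcl1, the cytokine gene Il1b and Tnfsf9 had the largest rises. Of the 180 genes that fell 2-fold, 58 had zinc finger symbols (Zfp with a number, Zscan or Zkscan). Genes with such symbols were 2.41% of the tested genes, and zinc finger genes with other symbols are not counted in this class. At an adjusted p under 0.05 (limma, Benjamini-Hochberg over all tested genes), 4970 of 13901 genes differed (35.8%), of which 2673 were higher (19.2%) and 2297 lower (16.5%). The share of higher genes among the calls was 53.8%, and 37.6% after quantile normalisation of the libraries. At least a 2-fold change, a log2 difference of 1 or more, was found for 505 genes (3.63%), with 325 higher (2.34%) and 180 lower (1.29%). With a pseudocount of 10 the falls numbered 92, and the rises were 290 to 338 over all alternatives. The 6 libraries did not overlap between 0 h and 1 h in 324 of the 325 and in 178 of the 180, against 49.3% of all tested genes. Rises reached further than falls, since 117 genes rose by 2 or more on the log2 scale and 34 by 3 or more, compared with 14 and 2 that fell as far. The median difference was 1.66 over the 325 genes and −1.21 over the 180, and 0.0003 over all tested genes. With the high 18S libraries alone the count of calls was 3009, but 321 of the 325 rises and 153 of the 180 falls were called, and with the 18S term 320 and 140. P-values measure the spread between these libraries, and 3 libraries against 3 cannot give a p below 0.1 in an exact permutation test. The values resemble a regularised log, which would understate differences in genes with few reads.

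**Figure D1:**
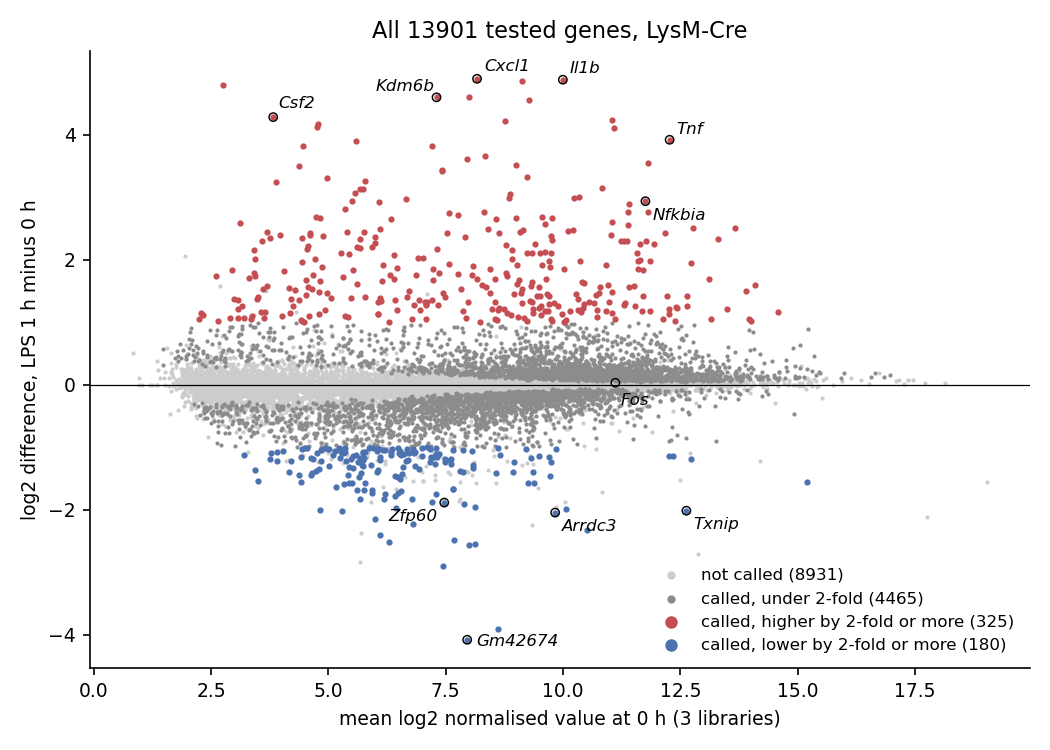
Each point is 1 of the 13901 tested genes in LysM-Cre macrophages, by its mean log2 normalised value at 0 h (x axis, 3 libraries) and its log2 difference between LPS 1 h and 0 h (y axis). Red points are the 325 genes called higher by 2-fold or more and blue points the 180 called lower, and Fos lies near 0 while Cxcl1 and Il1b lie near the top.

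Protein-coding genes with a mean linear value of at least 50 and no overlap are ranked here, and the largest rise was that of Cxcl1. Its values were 8.16, 8.16 and 8.19 at 0 h and 12.73, 13.21 and 13.25 at 1 h. Every treated library lay far above every untreated one, and the difference was 4.90 (SE 0.15, adjusted p = 1.5e-16), a 29.8-fold rise. Il1b, the gene of the fever-inducing cytokine interleukin-1β, read 9.99, 10.00 and 9.99 and then 14.77, 14.89 and 14.97, a difference of 4.88 (SE 0.08, adjusted p = 9.3e-21). Tnfsf9, which encodes the T cell costimulatory ligand 4-1BBL, read 9.07, 9.15 and 9.16 and then 13.90, 14.01 and 14.04, a difference of 4.85 (SE 0.07). Kdm6b, a histone H3 lysine 27 demethylase gene, was at 7.32, 7.33 and 7.25 and then at 11.91, 11.91 and 11.89, a difference of 4.60 (SE 0.08). In none of these genes did the groups overlap. The 1 h libraries low in 18S were the higher ones in Cxcl1, and in the high 18S libraries its difference was 4.56, below those of Il1b (4.77), Tnfsf9 (4.77), Kdm6b (4.61) and Il1a (4.60). The order of these genes therefore depended on the libraries used. The other large rises were Il1a (4.60), Socs3 (4.55), Csf2 (4.28), Cxcl2 (4.24), Errfi1 (4.22), Olr1 (4.18), Plat (4.13) and Nfkbiz (4.10). Olr1 is a receptor of oxidised lipoprotein and Plat the tissue plasminogen activator. A pseudogene outside that ranking, Gm10163, had a fitted difference of 4.80 (SE 1.78), at 2.72, 2.75 and 2.77 and then 2.71, 10.04 and 9.87. Only the 1 h libraries low in 18S were high, and in the high 18S libraries its difference was −0.03 (adjusted p = 0.882).

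**Figure D2:**
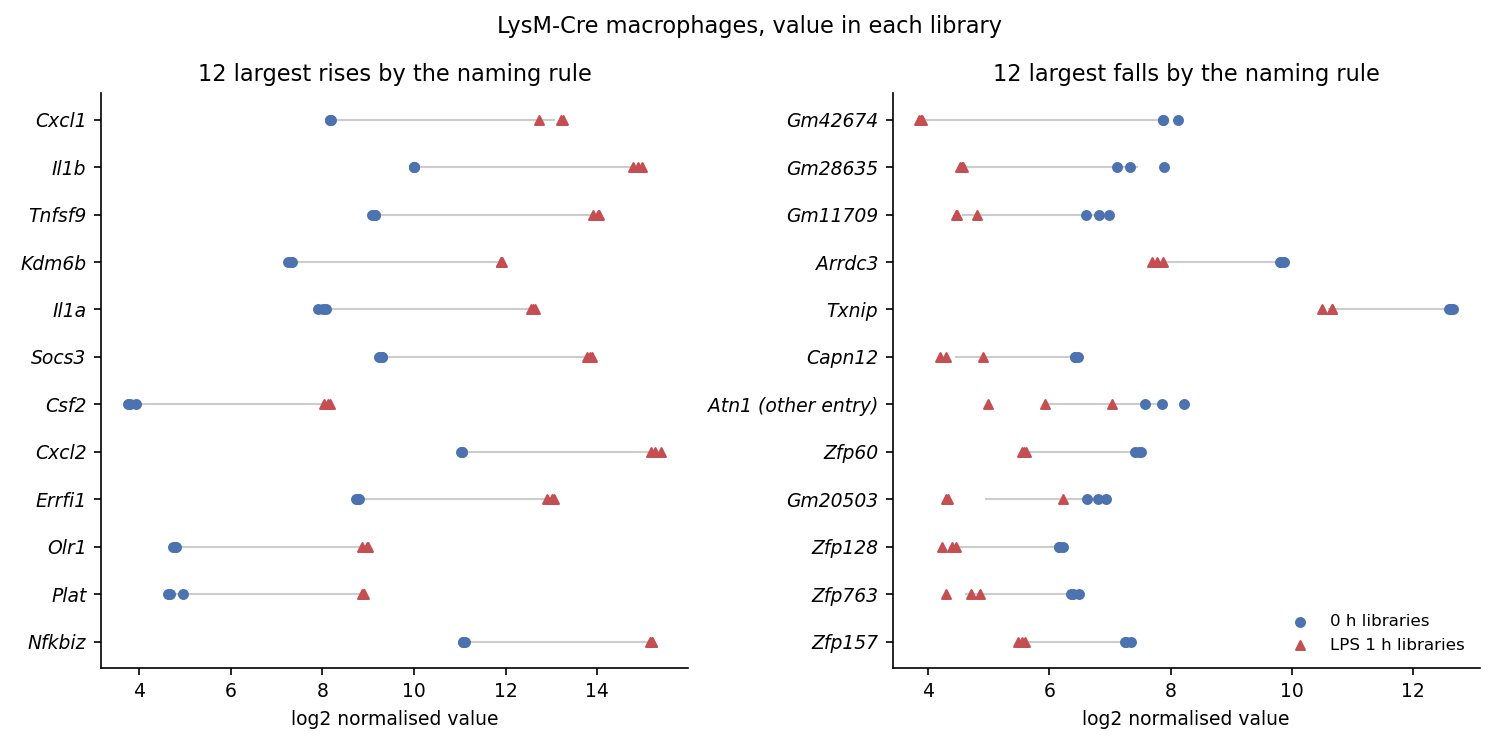
Log2 normalised value in each LysM-Cre library at 0 h (circles, 3 libraries) and at LPS 1 h (triangles, 3 libraries), with grey lines joining the group means, for the 12 protein-coding genes that rose and fell most among those with a mean linear value of at least 50 and no overlap. The rises span 4.10 to 4.90 with tight replicates, whereas several of the falls, such as Gm20503, are spread widely at 1 h.

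Of 24 genes of the LPS receptor, its adaptors and kinases, 16 were called higher and 3 lower, with a median difference of 0.20 (14 and 3 in the high 18S libraries, 14 and 6 with a median of 0.13 after quantile normalisation), and 2 of them rose 2-fold. Over all tested genes 19.2% were called higher and 16.5% lower, so the share of lower calls in this list was not above that of all genes. Cd14 was at 14.01, 14.00 and 14.00 at 0 h and 14.95, 15.04 and 15.07 at 1 h, a difference of 1.02 (SE 0.05), and the groups did not overlap. Tlr4 itself was at 11.53, 11.55 and 11.62 and then 11.17, 11.15 and 11.25, a fall of the log2 value by 0.38 (SE 0.05, adjusted p = 1.4e-06). The adaptor genes Myd88 (0.50) and Ticam1, which encodes TRIF (0.69), and the kinase gene Irak2 (0.91) rose, while Tab1 (−0.64), whose protein binds the kinase TAK1, and the bridging adaptor gene Tirap (−0.47) fell. The largest value in this list, 2.77, belonged to Acod1 (Irg1 in the table), which is an itaconate-making enzyme and no adaptor. Among the 10 other Toll-like receptors 3 were called higher and 2 lower with a median of 0.02 (3 and 4 with −0.07 under quantile normalisation, and 3 and none in the high 18S libraries), and Tlr2, the receptor of bacterial lipoproteins, rose by 1.48 (SE 0.10), followed by Tlr1 (0.46) and Tlr6 (0.39), which form dimers with it. With 10 genes these counts are near the shares of all genes.

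Most immediate early factors outside the AP-1 family were higher at 1 h than at 0 h, against 19.2% of all tested genes called higher and 16.5% lower. In the list of Egr, Nr4a and other immediate early factors 25 of 28 tested genes were called higher and 2 lower, with a median of 1.18 (22 and 2 in the high 18S libraries). Egr1, a zinc finger activator driven by ternary complex factors and SRF, read 9.09, 8.72 and 8.74 at 0 h and 11.71, 11.78 and 12.04 at 1 h, a difference of 3.00 (SE 0.10), with no overlap. Its mean at 0.5 h had been 14.28, and the step from there to 1 h was −2.44 on the log2 scale. Csrnp1 (3.51), the orphan nuclear receptor gene Nr4a1 (3.13), Egr3 (3.06), Egr2 (2.46) and Id3 (2.38), an inhibitor of helix-loop-helix factors, rose as well, whereas Csrnp2 (−1.31) and Ier5l (−1.64) fell.

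Among the 17 genes of the AP-1 family 10 were called higher, none lower, with a median of 0.30 (11 in the high 18S libraries, 10 and 1 after quantile normalisation). For comparison, 19.2% of all tested genes were called higher and 16.5% lower. Fos, the founding member, read 11.17, 11.07 and 11.10 untreated and 11.02, 11.07 and 11.34 at 1 h. The groups overlapped and the difference was 0.03 (SE 0.09, adjusted p = 0.82 by limma), with a sign that turned under 4 of the alternative settings. The mean at 0.5 h had been 13.52, and the step from there to 1 h was −2.37. Jun had a similar course, with −0.10 at 1 h (adjusted p = 0.062) after a mean of 12.61 at 0.5 h, and overlapping groups. The small Maf gene Maff read 7.47, 7.41 and 7.38 and then 10.77, 10.88 and 10.88, a rise of 3.43 (SE 0.07). Junb (2.55), the AP-1 repressor gene Jdp2 (2.49), Fosb (1.76, SE 0.27), Fosl1 (1.44) and Fosl2 (0.77) rose too, and Fosb had the widest 1 h replicates of these, at 6.64, 6.83 and 5.80.

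Genes of NF-κB subunits and of NF-κB inhibitors rose, whereas 19.2% of all tested genes were called higher and 16.5% lower. All 5 subunit genes were called higher, Rel by 2.31 (SE 0.05), Relb by 1.17, Nfkb2 by 1.06, Rela by 0.65 and Nfkb1 by 0.50, also in the high 18S libraries. Of 17 genes of inhibitors, atypical IκB proteins and the A20 system, 16 were called higher and none lower, with a median of 1.46 (15 in the high 18S libraries). Nfkbia, whose protein holds NF-κB in the cytoplasm, read 11.77, 11.76 and 11.73 untreated and 14.68, 14.69 and 14.70 at 1 h. The libraries of each group almost coincided, and the difference was 2.94, a 7.66-fold rise. Tnfaip3 read 11.86, 11.79 and 11.79 and then 15.31, 15.32 and 15.45, a rise of 3.55 (SE 0.05). Nfkbiz, the gene of the atypical nuclear protein IκBζ, read 11.11, 11.06 and 11.06 and then 15.14, 15.18 and 15.20, a rise of 4.10, and Nfkbid (2.65) and Nfkbie (1.98) rose less. Tnfaip2 (2.51) stands in this list but is not known as an inhibitor. Cyld, a deubiquitinase gene, was not called (0.07).

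Against 19.2% called higher and 16.5% lower over all tested genes, cytokine and growth factor genes rose broadly. Of 33 tested, 27 were called higher and 1 lower, Il16 (−0.69), and the median was 1.66 (24 and 1 in the high 18S libraries, 24 and 3 after quantile normalisation). Tnf read 12.26, 12.28 and 12.27 without LPS and 16.13, 16.15 and 16.29 with it, a rise of 3.92 (SE 0.06) or 15.1-fold. Il1a was at 8.02, 7.90 and 8.08 and then at 12.60, 12.55 and 12.64. Csf2, low before LPS at 3.75, 3.93 and 3.79, reached 8.16, 8.03 and 8.12. In each of these the treated libraries lay above all untreated ones. The cytokine genes Il23a (3.50), Lif (3.25), Il12b (2.97), Csf1 (2.31) and Il10 (2.26), of which the last is anti-inflammatory, were called as well. Il6, the gene of an acute phase cytokine, was at 4.84, 4.81 and 4.83 and then 6.51, 6.45 and 6.50, a difference of 1.66 (SE 0.12), followed by a further 3.24 between 1 h and 2 h.

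Chemokine genes rose in both classes, beside 19.2% of all tested genes called higher and 16.5% lower. Of the 8 tested CXC genes 5 were called higher, none lower, with a median of 1.09 (5 in the high 18S libraries). Cxcl2 read 11.05, 11.02 and 11.05 and then 15.18, 15.26 and 15.40, a difference of 4.24, and Cxcl3 rose by 2.67. These and Cxcl1 encode ligands of the neutrophil receptor CXCR2. Cxcl10, an interferon-responsive T cell chemokine, rose by 1.57 (SE 0.20) and Cxcl16 by 0.57. Of 13 CC genes 10 were called higher, none lower under the deposited scaling (11 and 1 after quantile normalisation, 9 and none in the high 18S libraries), with a median of 1.61. Ccl3, the macrophage inflammatory protein 1α gene, read 11.82, 11.72 and 11.73 and then 14.07, 14.07 and 14.04, a rise of 2.31. The monocyte chemokine gene Ccl2 rose by 2.30, Ccl22 by 2.66, Ccl4 by 2.11 and Ccl7 by 1.98. Ccrl2 (3.01), listed with them, is a chemokine-binding receptor.

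**Figure D3:**
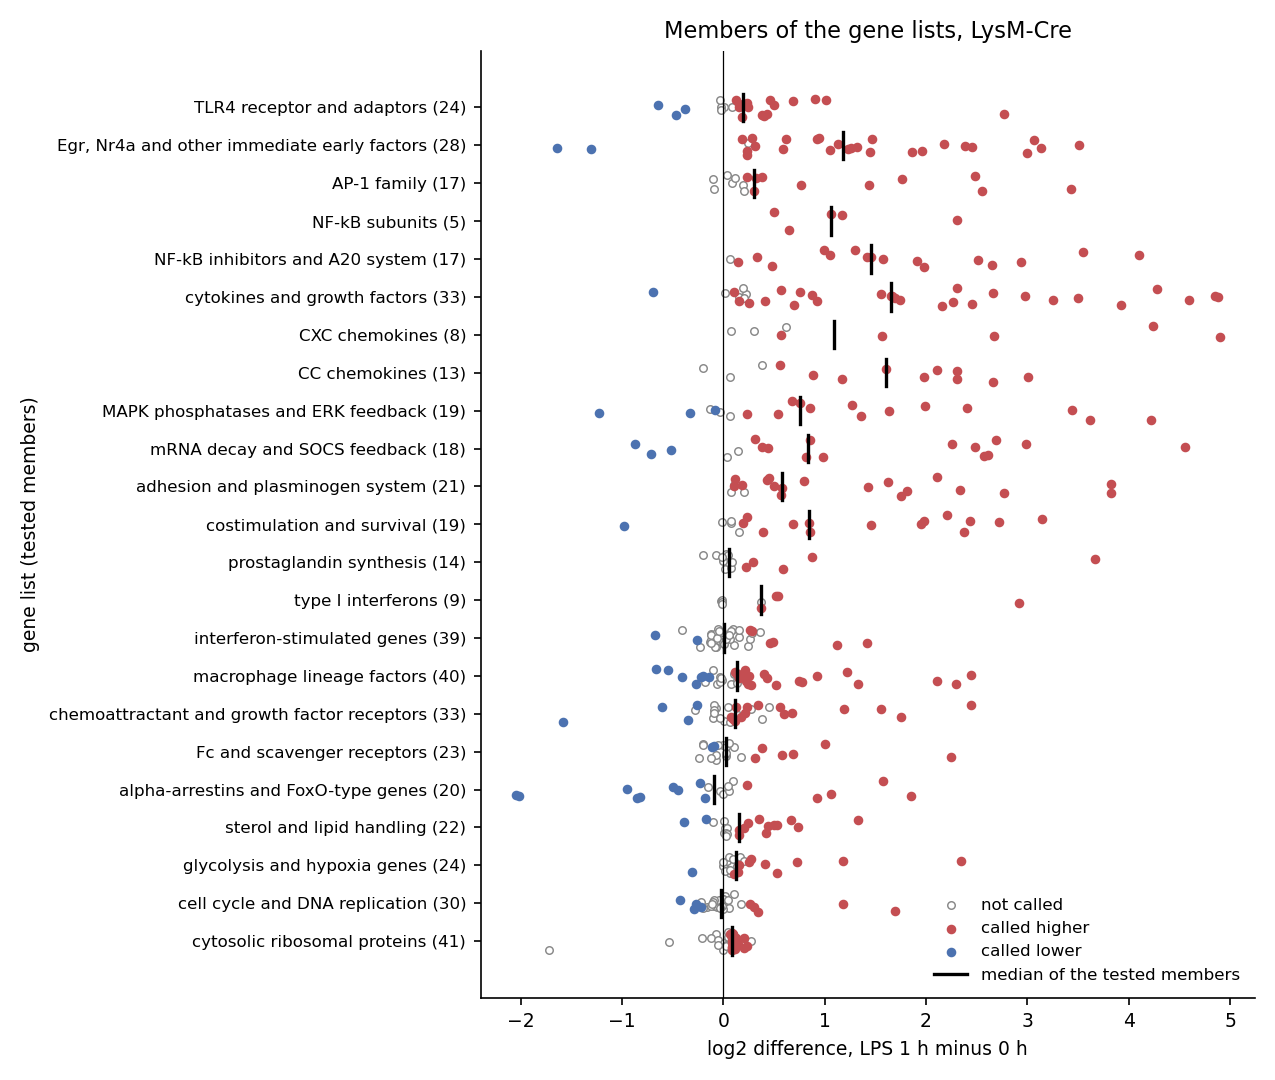
Log2 difference between LPS 1 h and 0 h (x axis) for every tested member of 23 gene lists (rows, with the number of tested members). Filled points were called higher (red) or lower (blue), open points were not called, and black bars are medians. Cytokines and NF-κB inhibitors reach far to the right, while interferon-stimulated genes (−0.67 to 1.42) and ribosomal proteins have medians near 0, with Rpl27 (−1.72, not called) far to the left.

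Most of the tested genes that restrain the response were called higher. Among all tested genes 19.2% were called higher and 16.5% lower. The share of lower calls in the following list was near the latter. Of 19 MAP kinase phosphatase and ERK feedback genes 13 were called higher and 3 lower, with a median of 0.76 (12 and 2 in the high 18S libraries). Dusp5, an ERK-specific nuclear phosphatase gene, read 7.98, 7.87 and 7.98 and then 11.51, 11.52 and 11.66, a rise of 3.62 (SE 0.07), and Dusp2 read 7.44, 7.46 and 7.39 and then 10.69, 10.85 and 11.07, a rise of 3.44. Both groups were well apart, as they were for Errfi1, the gene of an EGF receptor inhibitor, at 8.78, 8.73 and 8.80 and then 12.91, 13.02 and 13.05. Dusp1 rose by 1.99 (SE 0.04), Spry1 by 2.40 and Dusp4 by 1.64. Dusp6, a cytoplasmic ERK phosphatase gene, went the other way, from 9.88, 9.59 and 9.74 to 8.48, 8.39 and 8.65, a difference of −1.23 (SE 0.06).

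Of 18 genes of mRNA decay and cytokine signal feedback 13 were called higher and 3 lower, with a median of 0.84 (13 and 3 in the high 18S libraries). The 3 lower calls are near the 16.5% of all tested genes called lower, while 19.2% were called higher. Socs3, an inhibitor of JAK kinases, read 9.31, 9.31 and 9.23 and then 13.77, 13.85 and 13.88, a rise of 4.55 (SE 0.07). The ribonuclease genes Zc3h12c (2.99) and Zc3h12a (2.48), the latter encoding regnase-1, and the tristetraprolin gene Zfp36 (2.25, SE 0.07) rose, as did Cish (2.69), Pim1 (2.61) and Gadd45b (2.57). Zfp36l2, a relative of Zfp36, read 12.31, 12.29 and 12.28 and then 11.35, 11.35 and 11.57, a difference of −0.88.

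The interferon-β gene rose, while genes that answer interferon had a median difference near 0. Ifnb1 read 6.05, 6.04 and 6.14 at 0 h and 9.14, 9.11 and 8.73 at 1 h, a rise of 2.92 (SE 0.12). The groups did not overlap. Of 9 tested type I interferon genes 4 were called higher, none lower, with a median of 0.37 (4 in the high 18S libraries), and the interferon-α genes among them are near-identical copies with uncertain values. Of 39 interferon-stimulated genes 6 were called higher and 2 lower with a median of 0.01, which became 4 and 9 with a median of −0.13 after quantile normalisation, and 2 and 1 in the high 18S libraries. Over all tested genes 19.2% were called higher and 16.5% lower. Ifi205 (1.42) and Gbp5 (1.12) were the largest rises and Isg15 rose by 0.49, a call that was lost in the high 18S libraries, while Stat2, a subunit of the interferon-activated factor, fell by a log2 value of −0.67. Ifit1 (0.36, adjusted p = 0.072) and Rsad2 (0.25, adjusted p = 0.36) were not called by limma, and both were called higher between 1 h and 2 h, by 2.42 and 2.61. Among 20 genes written down as late LPS genes 15 were called higher at 1 h, none lower, with a median of 0.85 (13 in the high 18S libraries), among them Adamts4 (2.39), Clec4e (2.25) and Il27 (1.70).

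At the cell surface, 18 of 21 genes of adhesion and the plasminogen system were called higher, none lower, with a median of 0.58 (15 in the high 18S libraries, 15 and 3 after quantile normalisation). For this list and the next, the shares over all tested genes were 19.2% called higher and 16.5% lower. Sele, which encodes E-selectin, read 4.43, 4.45 and 4.53 and then 8.29, 8.18 and 8.41, a rise of 3.83 (SE 0.09). Its groups did not overlap. The adhesion gene Icam1 (2.77), the proteoglycan gene Sdc4 (2.34), the tissue factor gene F3 (2.11) and Serpinb2 (1.82) rose as well. Among 19 costimulation and survival genes 14 were called higher and 1 lower, with a median of 0.84 (12 and 1 in the high 18S libraries, 14 and 2 with a median of 0.57 after quantile normalisation). Cd83, a marker of activated antigen-presenting cells, read 10.79, 10.85 and 10.82 and then 13.90, 14.01 and 13.99, a rise of 3.15 (SE 0.05). Icosl rose by 2.43, and the antiapoptotic genes Bcl2a1d (2.72), Bcl2a1b (2.37) and Bcl2a1a (2.21) rose too, which are near-identical copies whose reads may be divided uncertainly. Bcl2l11, which encodes the proapoptotic protein BIM, rose by 1.98, while Bbc3, which encodes the proapoptotic protein PUMA, fell by a log2 value of −0.98.

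Receptor lists had medians near 0, and their counts stand against 19.2% called higher and 16.5% lower over all tested genes. Of 33 chemoattractant and growth factor receptor genes 15 were called higher and 4 lower, with a median of 0.12, 11 and 10 after quantile normalisation and 11 and 3 in the high 18S libraries. The fatty acid receptor gene Gpr84 (2.44), the adenosine receptor genes Adora2b (1.75) and Adora2a (1.55) and the interleukin-10 receptor gene Il10ra (1.19) rose. The cannabinoid receptor gene Cnr2 read 9.39, 9.42 and 9.35 and then 7.76, 7.76 and 7.90, a difference of −1.58 (SE 0.08), and Cxcr4 fell by a log2 value of −0.60. Of 23 Fc and scavenger receptor genes 6 were called higher and 2 lower, with a median of 0.02, and 5 and 10 with a median of −0.12 after quantile normalisation, and 5 and none in the high 18S libraries. The share called higher was near that of all genes. Clec4e, which encodes the lectin Mincle, was the largest rise (2.25). In prostaglandin synthesis 5 of 14 genes were called higher, none lower, with a median of 0.06 (5 in the high 18S libraries, 5 and 2 with a median of 0.12 after quantile normalisation). Ptgs2, the gene of the inducible cyclooxygenase, read 8.43, 8.20 and 8.35 and then 11.88, 11.93 and 12.16, a rise of 3.66 (SE 0.13), with Ptges at 0.87.

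Of 40 transcription factor genes of the macrophage lineage 21 were called higher and 7 lower, with a median of 0.14 (16 and 6 in the high 18S libraries, 15 and 9 with a median of 0.03 after quantile normalisation). Irf4 (2.44), Irf1 (2.29), Tfec (2.11), Cebpb (1.32), Etv3 (1.22) and Cebpd (0.92) rose. Cebpa, a myeloid transcription factor gene, fell by a log2 value of −0.55. The share of lower calls in this list was near the 16.5% of all tested genes, while 19.2% of all were called higher. These shares stand beside the sterol and glycolysis lists as well. In sterol handling 12 of 22 genes were called higher and 2 lower, with a median of 0.15 (8 and 8 after quantile normalisation, 10 and 2 in the high 18S libraries), among them the 25-hydroxylase gene Ch25h (1.33) and Insig1 (0.74). In glycolysis and hypoxia 10 of 24 were called higher and 1 lower, with a median of 0.13 (6 and 9, and −0.04, after quantile normalisation, and 7 and 1 in the high 18S libraries), with Adm (2.35) and the glucose transporter genes Slc2a6 (1.18) and Slc2a1 (0.73) as the largest. Of 30 cell cycle genes 5 were called higher and 4 lower, with a median of −0.02 (4 and 2 in the high 18S libraries). The median was 0.0031 after centring, −0.11 after quantile normalisation (5 and 6 calls) and −0.08 with the 18S term (4 and 7 calls). In the fit of all libraries neither share of calls was above that of all tested genes (19.2% higher and 16.5% lower). The genes that rose 2-fold were the cell cycle inhibitor gene Cdkn1a (1.70) and the proliferation marker gene Mki67 (1.18, SE 0.10), which read 11.83, 11.77 and 11.94 and then 13.24, 12.93 and 12.91.

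Ribosomal protein and housekeeping genes marked the scale of small calls. Of 41 ribosomal protein genes 19 were called higher, none lower, with a median of 0.08, whereas after quantile normalisation none were higher and 23 lower with a median of −0.12, and in the high 18S libraries 1 was higher. Of 15 housekeeping genes 4 were called higher and 1 lower, with 1 and 4 after quantile normalisation and 1 and 1 in the high 18S libraries. The direction of differences of this size therefore depended on the scaling, and the housekeeping counts are near the 19.2% higher and 16.5% lower of all tested genes. Of 17 non-polyadenylated and mitochondrial RNAs 3 were called higher and 2 lower, with 2 and 8 after quantile normalisation and none and 2 in the high 18S libraries. The 3 and 2 are likewise near the shares of all genes.

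Among the falls some genes had tight replicates and others wide ones. Txnip, the gene of the α-arrestin that binds thioredoxin and restrains glucose uptake, read 12.66, 12.62 and 12.59 at 0 h and 10.67, 10.66 and 10.51 at 1 h, a difference of −2.02 (SE 0.05, adjusted p = 1.1e-17). Its relative Arrdc3 read 9.87, 9.80 and 9.82 and then 7.78, 7.70 and 7.88, a difference of −2.05 (SE 0.06). Neither gene had overlapping groups. Of 20 α-arrestin and FoxO-type genes 9 were called lower and 5 higher, with a median of −0.09 (9 and 4 in the high 18S libraries). Of these 20 genes 2 fell and 3 rose 2-fold. Over all tested genes 16.5% were called lower and 19.2% higher, the latter near the share in this list. Tsc22d3, the glucocorticoid-induced leucine zipper gene, fell by a log2 value of −0.95, Arrdc2 by −0.85 and Foxo3 by −0.44, and Cited2 (1.85), Irs2 (1.57) and Rhob (1.06) rose.

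The largest fitted fall was that of Gm42674, at 8.12, 7.87 and 7.87 and then 3.88, 3.86 and 3.89, a difference of −4.08 (SE 0.94). The SE rests on the spread within all 8 groups of the fit. The fall was called in the high 18S libraries (−4.08) and with the 18S term (−2.54). This gene overlaps S100a4 on the same strand, so its value is uncertain. Gm28635 (−2.89, SE 0.91; overlapping Ctnnd1 and Tmx2), Gm20503 (−1.83, SE 0.69; overlapping Gng10 and Dnajc25) and an Atn1 entry (−1.91, SE 0.73, ENSMUSG00000107478, overlapping Grcc10 and the larger Atn1 entry, which was higher by 0.33) are uncertain for the same reason. These 3 and Gm11709 (−2.23, SE 0.69) lost the call with the 18S term, at adjusted p = 0.13, 0.066, 0.368 and 0.116, respectively. All 4 were called in the high 18S libraries, Gm28635 (−2.89) and Gm11709 (−2.35) with falls of similar size and Gm20503 (−0.56) and the Atn1 entry (−0.86) with smaller ones. Gm20503 read 6.93, 6.61 and 6.80 and then 6.22, 4.30 and 4.34, with only the libraries low in 18S far down. Capn12 (−1.97, SE 0.53), a calpain protease gene, was likewise widely spread, at −1.53 in the high 18S libraries and −0.91 with the 18S term. Among the 180 genes 23 were pseudogenes, of which 13 were called in the high 18S libraries and 6 with the 18S term.

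Zinc finger genes accounted for 58 of the 180 falls (32.2%), although they were 2.41% of the tested genes. They were taken by symbol, as Zfp with a number, Zscan or Zkscan without the Zfp36 family, after their values had been seen, so no test was made. Most such genes encode DNA-binding proteins with many zinc fingers, a large part of them repressors. Of 335 tested, 229 (68.4%) were called lower and 21 higher, with a median of −0.47, and 58 (17.3%) fell 2-fold. In the other direction 3 rose 2-fold, namely Zfp131 (1.34), Zfp719 (1.33) and Zfp263 (1.32). In the high 18S libraries 192 were called lower and 15 higher. In the fit of all libraries 15.2% of the other tested genes were called lower and 0.899% fell 2-fold. Among the 3038 with a mean level inside the middle range of the zinc finger genes these shares were 21.9% and 1.35%. The largest fall of this class was that of Zfp273 (−2.15, SE 0.15), whose mean linear value of 37.2 is under the naming limit of 50. Zfp60 read 7.42, 7.51 and 7.47 and then 5.58, 5.62 and 5.55, a difference of −1.89 (SE 0.07), and Zfp128 read 6.16, 6.16 and 6.23 and then 4.46, 4.39 and 4.23, a difference of −1.82 (SE 0.10). Among those above the limit Zfp763 (−1.79) and Zfp157 (−1.74) followed. The groups did not overlap in any of the 58, and all 58 were called lower in the high 18S libraries (median −1.15), with the 18S term (median −1.17) and in FosKO. After quantile normalisation 221 of the 335 were called lower and 27 higher, and 30 fell 2-fold.

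The genes that rose and fell were also described by structure, with no test. The median span of the protein-coding ones was 14.2 kb for rises and 13.2 kb for falls against 23.8 kb for all, and the median number of exons was 5, 4 and 8. Transcripts differed less, at 2.99, 3.22 and 3.39 kb. Protein-coding genes made up 87.1% of the rises, 70.6% of the falls and 85.8% of all tested genes. Among non-coding rises was Mir155hg, the host transcript of microRNA miR-155, which read 5.59, 5.53 and 5.63 and then 9.58, 9.36 and 9.50, a rise of 3.90 (SE 0.08). The mature forms that it carries, at chr16:84714143-84714165 and chr16:84714182-84714202 on the plus strand of GRCm38.p6, are given from RefSeq with the seed (bases 2 to 8) in capitals. Their own levels were not measured here.
mmu-miR-155-5p: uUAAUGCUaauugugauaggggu
mmu-miR-155-3p: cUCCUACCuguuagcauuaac

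The 1 h libraries caught different genes at different phases. The following values compare 1 h with 0.5 h and 2 h in LysM-Cre, and these comparisons share the 1 h libraries with the main one. Of the 325 genes that rose 2-fold, 16 had their highest mean at 0.5 h, 129 at 1 h and 180 at 2 h. Over these genes the median difference from 0 h was 0.50 at 0.5 h, 1.66 at 1 h and 1.95 at 2 h. From 0.5 h to 1 h, a step in which 26.8% of all genes were called (14% higher and 12.8% lower), 290 of the 325 were called further up and 9 back down. From 1 h to 2 h, in which 52.3% were called (27.5% higher and 24.8% lower), 153 were called further up and 112 back down.

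The genes with an early peak included Egr1, Fos, Zfp36 (mean 15.03 at 0.5 h) and Dusp1 (14.36 at 0.5 h, then lower by a log2 value of −0.73). Kdm6b, Tnfsf9 and Dusp5 peaked at 1 h and changed by −2.29, −2.06 and −2.88 in the next hour. Nr4a1 dropped by as much as −3.16 in that hour, back to a mean of 5.70. Il12b (2.83), Il6 (3.24) and Cxcl10 (2.69) kept rising, and Ifnb1 rose by another 0.89. Of the 180 genes that fell 2-fold, 156 were lowest on average at 1 h, 22 at 2 h and 2 at 0.5 h. Their median differences from 0 h at 0.5, 1 and 2 h were −0.37, −1.21 and −0.69. In the step to 2 h 97 of them were called back up and 17 further down. Of the 58 zinc finger falls 51 were called back up and none further down, with medians of −0.25, −1.11 and −0.55. Txnip came back by 1.23, whereas Arrdc3 (−0.86), Cnr2 (−1.71) and Zfp36l2 (−1.73) went on falling.

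**Figure D4:**
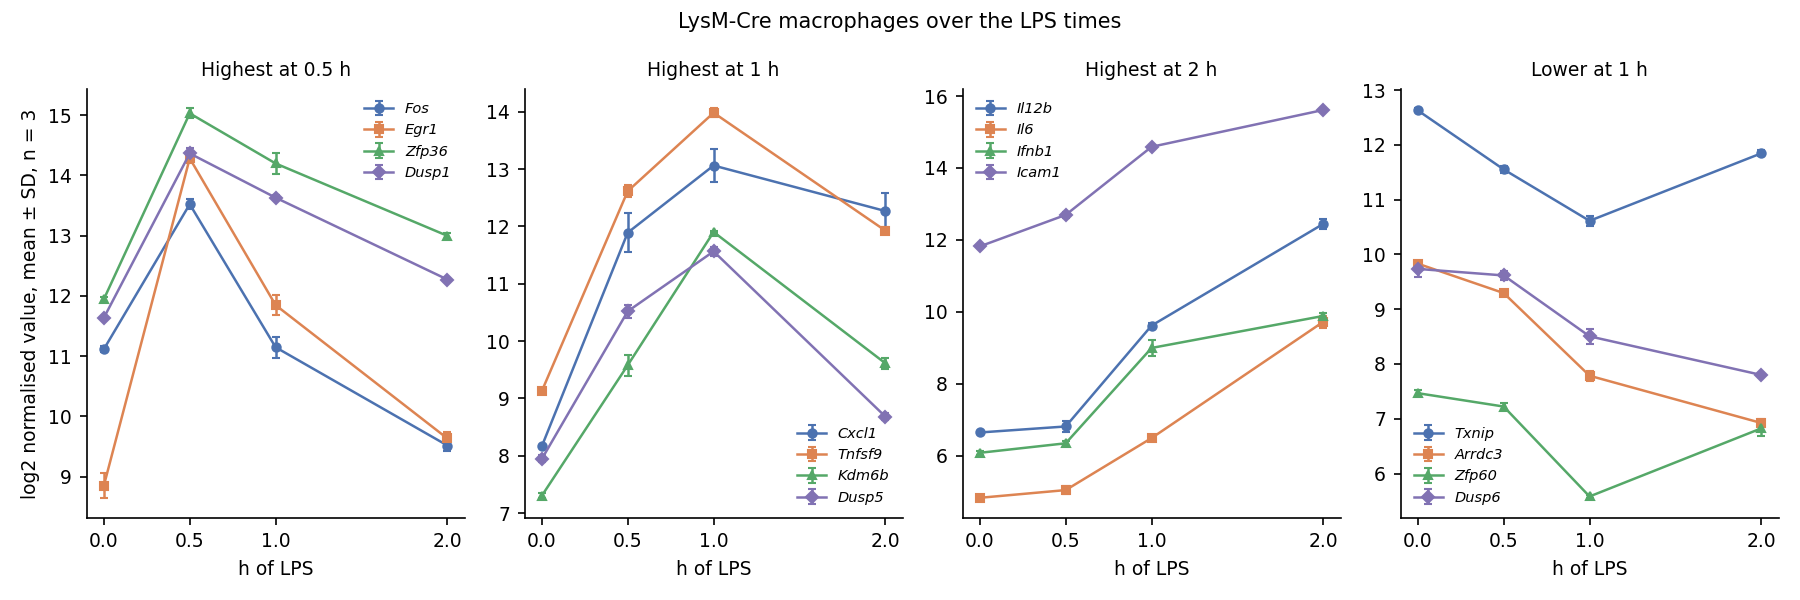
Mean log2 normalised value ± SD (n = 3 libraries) in LysM-Cre macrophages at 0, 0.5, 1 and 2 h of LPS, for genes that peaked at 0.5 h, 1 h or 2 h, and for genes lower at 1 h than at 0 h. Fos is back near its 0 h value at 1 h, Dusp5 drops after 1 h, Il6 climbs mostly after 1 h, and Txnip and Zfp60 are lowest at 1 h.

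The FosKO libraries, which share no library with the control, gave the same contrast a second time. Both contrasts came from the same fit and share its estimate of each gene's spread. The FosKO calls are therefore not fully independent of the control calls. There 32.6% of tested genes were called, 17.6% higher and 15% lower. Of the 325 genes that rose 2-fold in LysM-Cre, 317 (97.5%) were called higher in FosKO and none lower, with a median of 1.53. Of the 180 that fell, 127 (70.6%) were called lower and none higher, with a median of −0.99. The 2-fold rises shared by both numbered 260, which is 80.0% of the LysM-Cre list and 83.3% of the FosKO list, and the shared 2-fold falls 84, which is 46.7% and 74.3%. By kind, all 58 zinc finger falls, 50 of 69 other protein-coding falls, 4 of 23 pseudogenes and 15 of 30 other non-coding or unplaced genes were called lower in FosKO. Gm42674 was at 0.67 in FosKO and was not called.

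The difference between the genotypes in the 1 h response was called for 169 genes (1.22%) in the same limma fit, with 68 higher and 101 lower values in FosKO, and 80 of them were among the 505 genes changed 2-fold in LysM-Cre. Of these 80, 57 rises were smaller and 19 larger in FosKO, and 4 falls were shallower. The 505 genes were chosen by their change in LysM-Cre libraries that also enter the difference, which favours smaller changes in FosKO, so nothing is read from this split. The count of 169 was 93 in the high 18S libraries, 112 in the compared groups alone and 273 with library quality weights. The 80 genes became 41, 56 and 104, with 20, 40 and 74 smaller rises and 16, 14 and 25 larger ones. Csf2 (4.28 in LysM-Cre, 2.85 in FosKO), Errfi1 (4.22 and 3.08), Dusp5 (3.62 and 2.44) and Il10 (2.26 and 1.16) were among the smaller rises. Ifnb1 (2.92 and 6.01), Il6 (1.66 and 3.19), Il12b (2.97 and 3.88) and Egr1 (3.00 and 4.08) were among the larger. Cxcl1 (4.90 and 4.40), Il1b (4.88 and 4.58), Tnf (3.92 and 3.99) and Tnfaip3 (3.55 and 3.32) were not called for a difference.

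**Figure D5:**
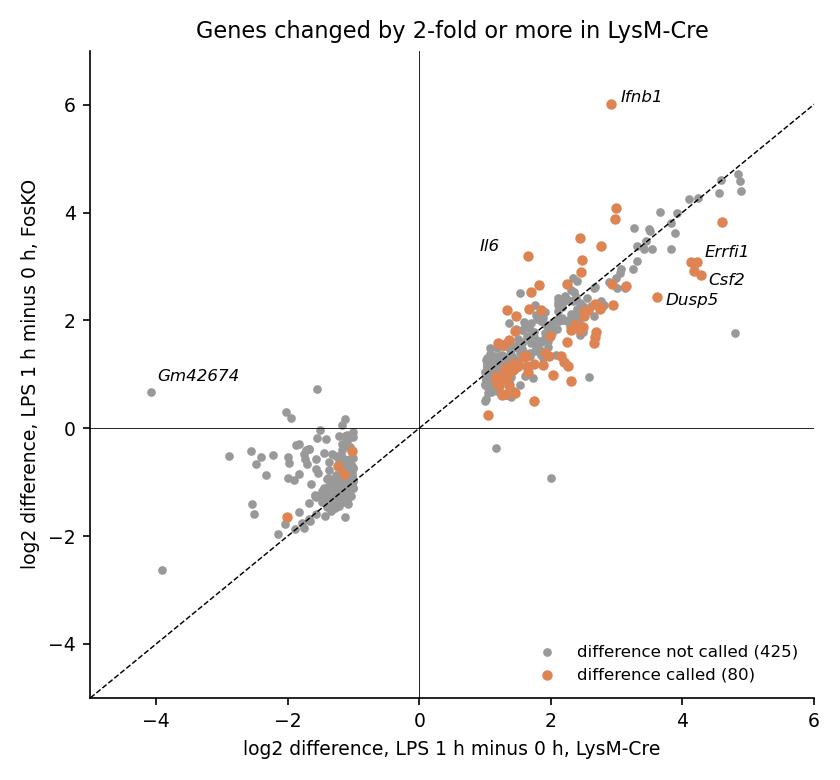
Each point is 1 of the 505 genes changed by 2-fold or more in LysM-Cre, by its log2 difference between LPS 1 h and 0 h in LysM-Cre (x axis) and in FosKO (y axis), with the dashed line at equal values. Orange points are the 80 genes whose difference between genotypes was called. Ifnb1 and Il6 lie above the line, and Csf2, Errfi1 and Dusp5 below it.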

How the data were processed

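Per the submitters' processing notes, STAR 2.5.2a, RSEM 1.2.31 and DESeq2 1.16.1 were used with GRCm38; the study's methods describe single-end, strand-specific TruSeq libraries. The authors deposited 1 table of log2 normalised values for 24273 genes (1017 without a symbol) and 24 libraries, from −2.22 to 19.39. Whole reads could not be recovered, so depth is unknown and no counting interval was computed; the spread between libraries is the error given. The stated annotation is RefSeq, whereas the table holds Ensembl identifiers, of which 13873 of the 13901 tested were found in GENCODE release 21 for mouse.

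Values were analysed as deposited. Genes with a linear value (2 raised to the log2 value) of 5 or more in no fewer than 3 libraries were tested. All 24 libraries entered 1 limma fit (limma 3.58.1, R 4.3.3) with 8 group means, empirical Bayes moderation with a trend and 16 residual degrees of freedom. P-values were adjusted by Benjamini-Hochberg over the 13901 genes, with calls made below an adjusted p of 0.05. The study's methods call the libraries biological replicates; whether these were separate mice or cultures is not given in the sources used here, and p-values measure the spread between these libraries. Linear folds are 2 to the power of the log2 difference. The fit was tested on simulated data, and the results of that test are not given here. Alternatives were trimmed mean of M values (TMM) factors on the linear values, quantile normalisation, centring, filters, pseudocounts, subsets of libraries, 18S content, a replicate block, variance models and leaving out each replicate.

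The comparison and the 35 gene lists were chosen with earlier results of these data known. The naming rule took 12 rises and 12 falls of greatest size, each a called protein-coding gene whose groups did not overlap and whose linear value averaged 50 or more over the libraries, up to 6 called members of each list with the largest differences, and members that define the pathway. Other genes were named after their values were seen: Jun, Ier3, Lif, Csf1, Dusp6, Tirap, Zfp36l2, Cxcr4, Foxo3, Arrdc2, Cebpa, Bbc3, Il16, Csrnp2, Ier5l, Ifit1, Rsad2, Rpl27, Rn18s-rs5, Mir155hg, Gm10163, the zinc finger class and the genes of the last section. Some genes that the rule names are not reported here.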

Additional observations from a re-analysis of the deposited data

Results flagged for a closer look

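The 1 h response differed between FosKO and LysM-Cre for 52 of the 217 named genes, by the interaction term of the limma fit at an adjusted p under 0.05 (Benjamini-Hochberg over all 13901 genes). Over all tested genes the difference was called for 169 (1.22%), 68 higher and 101 lower. The named genes were largely picked for large responses in LysM-Cre, so their share and direction are no result about them. Values are given for 50 of them. Each value below is the log2 response in FosKO minus that in LysM-Cre.

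A lower value in FosKO was found for 29 genes. Among cytokine and chemokine genes these were Csf2 (−1.43), Il10 (−1.11), Ccl22 (−1.09), Cxcl3 (−0.98), Ccl7 (−0.64) and Csf1 (−0.49). Among genes of signal feedback and stress they were Dusp5 (−1.18), Errfi1 (−1.14), Cish (−0.91), Gadd45b (−0.38), Dusp1 (−0.28), Hspa1b (−0.53) and Sqstm1 (−0.34). Genes of receptors, adhesion and proteolysis were Olr1 (−1.26), Adora2b (−1.25), Plat (−1.05), Clec4e (−0.65), Gpr84 (−0.63), Icam1 (−0.53) and Cd83 (−0.50). In metabolism and prostaglandin synthesis Pfkfb3 (−0.66) and Ptges (−0.62) were lower. The transcription and chromatin genes were Kdm6b (−0.77), Jdp2 (−0.61), Etv3 (−0.43) and Relb (−0.33), and in the TLR4 and NF-κB lists Tnfaip2 (−0.44), Ticam1 (−0.26) and Nfkbia (−0.26) were lower.

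A higher value in FosKO was found for 23 genes, of which 21 are given. The interferon genes differed most, with Ifna2 (4.04), Ifna1 (3.19), Ifnb1 (3.09) and Ifna5 (3.02), of which the Ifna genes are near-identical copies with uncertain values. The cytokine genes Il6 (1.53), Il12b (0.91) and Il27 (0.82) rose further in FosKO, as did Egr1 (1.08), Egr2 (0.44), Zfp36 (0.41), Serpinb2 (0.85), Ch25h (0.87), Ptger4 (0.69), Mylip (0.34) and Insig1 (0.22). Jun had a difference of 0.44. Genes that fell in LysM-Cre and for which the fall was shallower were Zfp36l2 (0.56), Dusp6 (0.54), Bbc3 (0.38), Txnip (0.37) and Hhex (0.30). At 1 h, LysM-Cre replicates 2 and 3 and FosKO replicate 1 were low in 18S (16.88, 17.00 and 16.86), so the groups were not balanced in it. Fewer differences were called in the high 18S libraries alone, which leave 1 LysM-Cre library at 1 h. Which of the listed differences were among them is not given here.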

How the results depend on the processing

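Counts of calls stayed within 1.5 times of the reported value in 185 of 193 alternative values. In the libraries high in 18S, calls between 1 h and 0 h in LysM-Cre fell from 4970 to 3009 (1632 higher and 1377 lower), those between 1 h and 0.5 h from 3725 to 2010, and genotype differences from 169 to 93, with fewer libraries in each fit. A pseudocount of 10, which shrinks differences of low genes, gave 92 2-fold falls against 180. Genotype differences numbered 112 in the compared groups alone and 273 with library quality weights, and the cause was not tested. Leaving out 1 replicate gave 4213 to 4625 calls (2261 to 2469 higher and 1924 to 2156 lower), 318 to 329 2-fold rises, 139 to 244 2-fold falls, 3136 to 3451 calls against 0.5 h, 6635 to 6817 between 2 h and 1 h, 3844 to 4462 in FosKO and 125 to 200 genotype differences. The share of calls that were higher was 53.8% as deposited, 37.6% after quantile normalisation, 53.1% with TMM factors and 61.2% after centring, and the median of all tested genes was 0.0003, −0.0256, −0.0022 and 0.0238.

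Of 4553 values of named genes under alternatives 4370 kept their direction and side of the threshold, 148 lost the call, 24 gained it and 11 changed sign. Fos changed sign with quantile normalisation (−0.0804), the 18S term (−0.0453), the high 18S libraries (−0.0923) and without LysM-Cre 1 h replicate 3 (−0.067), and ranged from −0.067 to 0.0939 when 1 replicate was left out. Quantile normalisation turned Rpl6 (−0.0392), Rps25 (−0.0622), Rplp0 (−0.11), Rps14 (−0.086), Ywhaz (−0.0015), Ppia (−0.0066) and Csf1r (−0.10). Of 211 called named genes 184 were called in the high 18S libraries, 195 with the 18S term, 193 after quantile normalisation and 195 to 204 when 1 replicate was left out. The Atn1 entry and Gm20503 lost the call when any 1 of 5 of the 6 libraries was left out, all but LysM-Cre 1 h replicate 1. Of 735 list medians 63 moved beyond the spread between replicates.

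With the replicate number as a replicate block within genotype 5442 genes were called and all 211 named genes kept the call. The other counts were higher with the block as well, at 4130 calls against 0.5 h, 7620 between 2 h and 1 h, 4948 in FosKO and 242 genotype differences. Deviations of 0 h and 1 h libraries of the same number correlated at 0.035, 0.087 and 0.039, so the numbers were not taken as pairs, although each library correlated best with its own number. Depth is unknown, and with 3 libraries a group small differences rest on the pooled variance.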

Other observations

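Further genes of the 1 h response, picked after their values were seen, are given as values in LysM-Cre. Nlrp3, the inflammasome sensor gene, read 11.46, 11.35 and 11.42 at 0 h and 14.27, 14.32 and 14.31 at 1 h, a difference of 2.89 (SE 0.06), and the genes of the cytosolic peptidoglycan sensor Nod2 (1.69) and of its kinase Ripk2 (1.70) rose too. Pde4b, a cyclic AMP phosphodiesterase gene, read 9.31, 9.13 and 9.27 and then 12.49, 12.55 and 12.63, a difference of 3.32 (SE 0.09). Malt1, a paracaspase gene, rose by 1.57, and Prdm1, which encodes the repressor BLIMP1, by 2.67 (SE 0.06). None of these genes had overlapping groups.

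Some other genes, picked in the same way, were called higher. The heat shock protein 70 genes Hspa1b (2.74) and Hspa1a (2.42), which are near-identical copies with uncertain values, were both called. Sqstm1, the gene of the autophagy receptor p62, read 13.92, 13.87 and 13.87 and then 15.33, 15.43 and 15.39, a difference of 1.50 (SE 0.03). The cystine transporter gene Slc7a11 (1.77), the mitochondrial superoxide dismutase gene Sod2 (1.59), the metallothionein gene Mt2 (1.41) and the thioredoxin reductase gene Txnrd1 (1.24) were called higher too.

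Some of the genes that fell lay outside the lists described. Cd300lb, an activating myeloid receptor gene, read 12.25, 12.28 and 12.23 and then 11.10, 11.09 and 11.14, a difference of −1.14 (SE 0.04). The proapoptotic gene Bmf (−1.67), the lysophosphatidic acid receptor gene Lpar6 (−1.47) and the homeobox gene Hhex (−1.15) fell too. All of these genes were lower again at 2 h than at 1 h, with steps from −0.26 for Hhex to −1.52 for Lpar6.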
